A study of Oryctolagus cuniculus with 4 samples.

Results

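CD74 and STAB1 are the 2 genes described here, of 21139 features counted in a Visium study of rabbit supraspinatus muscle. Each was taken as the feature that carries its name in the feature list (CD74, ENSOCUG00000003863, and STAB1, ENSOCUG00000028026). They were chosen with earlier results of these data in view, in which CD74 was among the leading genes of a group of MYH7-rich spots. The relation of CD74 to MYH7 is therefore given only as a description.

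CD74, the invariant chain, is the chaperone that fills the peptide groove of MHC class II molecules until they reach the endosome, where cathepsins cut it away and HLA-DM loads a peptide in its place. It is typical of macrophages, dendritic cells and B cells, and is also known at the cell surface as the receptor of the cytokine MIF. STAB1, stabilin-1, is an endocytic scavenger receptor of tissue macrophages and of lymphatic and sinusoidal endothelium that takes up modified lipoproteins, the matrix protein SPARC and dying cells. In muscle, macrophages lie mostly in the connective tissue around and between the fibers.

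The supraspinatus, a rotator cuff muscle, was cut through its tendon (tenotomy) in skeletally mature, 6 months old, female New Zealand White rabbits to model a rotator cuff tear. There was 1 section per condition, from the distal muscle belly. A fresh healthy muscle, a healthy muscle stored frozen for 6 years, and muscles taken 2 weeks and 16 weeks after tenotomy, both also stored for 6 years, were sectioned. The stored healthy and 16-week sections carry the same animal number for the right and left side, whereas the other sections come from other animals. Condition and animal therefore cannot be told apart in any comparison but that of this pair, where condition goes with the side. A spot is a small region that can hold several cells or part of one, and fewer cells of a type and less RNA per cell cannot be told apart in it.

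The sections held 1950 spots (fresh healthy), 2440 (stored healthy), 854 (2 weeks) and 1726 (16 weeks), with 7017798, 12536450, 4079313 and 4743522 unique molecular identifiers (UMIs), each a captured transcript counted once. Mitochondrially encoded genes took 49.3% and 49.2% of UMIs in the fresh and stored healthy sections against 33.8% and 34.6% at 2 and 16 weeks. Of the markers of muscle, the calcium pump gene ATP2A1 was counted in 81.3% to 99.5% of spots, NEB, which encodes the thin filament protein nebulin, in 87.9% to 98.5%, desmin (DES) in 36.8% to 66.5% and myoglobin (MB) in 33.1% to 53.4%, each lowest at 16 weeks, the section with the fewest UMIs per spot. Of 2931 distinct spot barcodes, which mark array positions and not cells, 512 were found in all 4 sections. Because no condition had a replicate, no p-value is given. All intervals are exact 95% intervals that cover counting error only. They cover neither the spread between animals nor the clustering of UMIs in spots.

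Both genes were rare transcripts in every section. For CD74 there were 56 UMIs in fresh healthy, 373 in stored healthy, 316 in 2-week and 329 in 16-week muscle. Relative to depth, its level was 0.0798 per 10000 UMIs (0.0603 to 0.104) in fresh healthy, 0.298 (0.268 to 0.329) in stored healthy, 0.775 (0.692 to 0.865) at 2 weeks and 0.694 (0.621 to 0.773) at 16 weeks. CD74 thus had its highest levels in the sections after tenotomy, whose intervals overlapped each other and lay above those of both healthy sections.

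STAB1 was counted with 69, 414, 196 and 466 UMIs in the same order. Its level was 0.0983 per 10000 UMIs (0.0765 to 0.124) in fresh healthy, 0.330 (0.299 to 0.364) in stored healthy, 0.480 (0.416 to 0.553) at 2 weeks and 0.982 (0.895 to 1.08) at 16 weeks. None of the 4 intervals of STAB1 overlapped, and the 16-week section was the highest. In the plot of levels by section, CD74 and HLA-DRA peaked at 2 weeks, and STAB1 and CD68, a lysosomal glycoprotein of macrophages, peaked at 16 weeks.

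**Figure D1:**
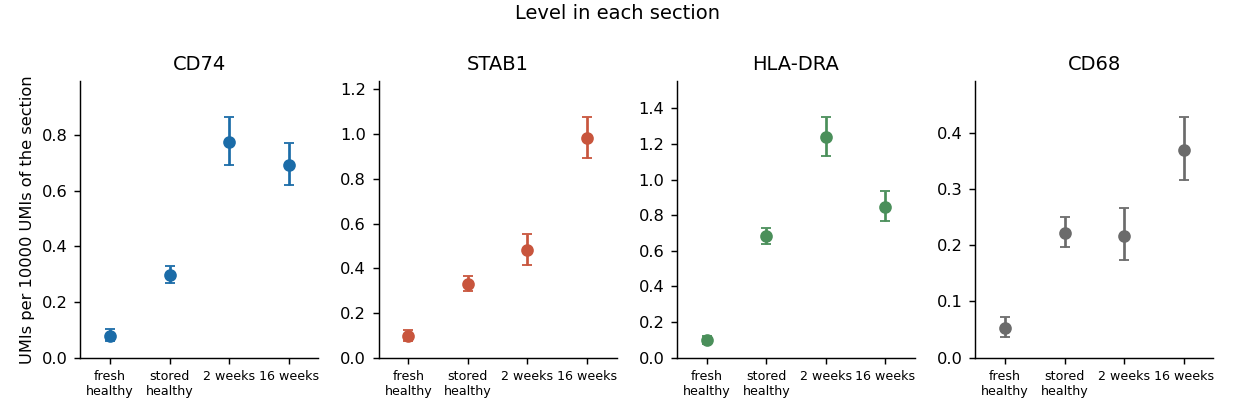
Level of CD74, STAB1, HLA-DRA and CD68 (UMIs per 10000 UMIs of the section, y axis from 0, a scale for each gene) in the 4 sections. Points are the 1 section of each condition and bars are exact Poisson 95% intervals; CD74 reached 0.775 at 2 weeks and STAB1 0.982 at 16 weeks.

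The balance of both genes differed between the sections. There were 0.812 CD74 UMIs per STAB1 UMI in fresh healthy, 0.901 in stored healthy, 1.61 at 2 weeks and 0.706 at 16 weeks. This quotient has no absolute meaning, since the capture efficiency of each transcript is unknown. It does not depend on the total UMIs of the section or on the mitochondrial share. It does depend on how spots of unequal depth weigh in the sums, as the thinned section ratios given further below show. It was 1.79-fold higher at 2 weeks than in stored healthy muscle (1.42 to 2.26) and 0.784-fold at 16 weeks (0.639 to 0.961), and between 16 and 2 weeks it differed by 0.438-fold (0.347 to 0.553). The stored and fresh healthy sections differed by 1.11-fold (0.747 to 1.66), an interval that includes 1.

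Most spots held no UMI of either gene. CD74 was counted in 2.46% of spots in fresh healthy, 9.80% in stored healthy, 18.1% at 2 weeks and 11.2% at 16 weeks. Every spot was then thinned to 1000 UMIs, mitochondrial ones included, to set total depths equal. With the 266, 93, 53 and 352 shallower spots left out, the CD74 shares were 0.534%, 2.47%, 6.62% and 5.09%. STAB1 was counted in 3.08%, 13.1%, 16.4% and 18.1% of spots, and in 1.01%, 3.54%, 4.0% and 10.3% of the thinned spots. At equal total depth the intervals of stored healthy and 2 weeks overlapped for STAB1 (2.83% to 4.37% against 2.75% to 5.59%) and did not for CD74 (1.88% to 3.18% against 5.0% to 8.57%). Mitochondrially encoded genes took 49.2% of UMIs in stored healthy muscle and 33.8% at 2 weeks, so depth in the other genes was not equal.

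UMIs of CD74 were concentrated in a few spots. In the stored healthy section 33 spots had 3 or more CD74 UMIs, where a Poisson distribution by depth alone gives 1.84, and these held 35.1% of all its UMIs. At 2 weeks there were 30 such spots against 9.20 from depth, with 52.5% of the UMIs, and at 16 weeks 27 against 4.75, with 39.2%. STAB1 was also clustered, but with fewer UMIs at the top, as its richest spot held 2, 5, 8 and 6 UMIs in the 4 sections, against 5, 7, 17 and 17 for CD74. Its spots with 3 or more UMIs numbered 0, 21, 12 and 34, against 0.0293, 2.47, 2.75 and 11.8 from depth.

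**Figure D2:**
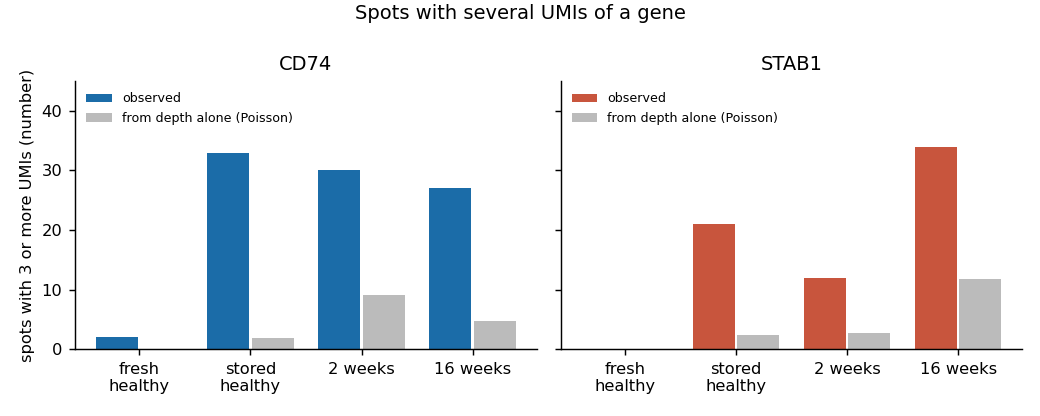
Number of spots (y axis, from 0) with 3 or more UMIs of CD74 or of STAB1 in each section, beside the number that a Poisson distribution by spot depth gives. The observed number was above that from depth for both genes in the 3 stored sections, with 33 against 1.84 for CD74 in stored healthy muscle.

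The richest spots differed in what they held beside the 2 genes. At 2 weeks the spot with 17 CD74 UMIs had 16 UMIs of HLA-DRA, the alpha chain of an MHC class II molecule, and 0 of STAB1 and CD68. The next spot, with 14 CD74 UMIs, was also the richest in STAB1 with 8, and held 166 UMIs of the collagen gene COL3A1. At 16 weeks the spot with 17 CD74 UMIs had 5 of HLA-DRA, 2 of CD68, 0 of STAB1 and 21 of VWF, the von Willebrand factor of endothelium. The 3 stored healthy spots richest in CD74 (6 to 7 UMIs) were slow-myosin spots, with 97.7% to 98.2% of their myosin UMIs from MYH7, and held 8 to 17 UMIs of HLA-DRA. High CD74 thus came with HLA-DRA in each of these spots, and with STAB1 in only some of them.

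The first comparison asked how muscle 2 weeks after tenotomy differed from healthy muscle of the same storage time. CD74 was 2.60-fold higher (2.23 to 3.03) and STAB1 1.45-fold higher (1.22 to 1.73). At the level of single features, 27.6% of 5686 features with at least 20 UMIs were at least 2-fold higher, and the median feature had a log2 ratio of 0.63, so CD74 (log2 ratio 1.38) stood above the median and STAB1 (0.54) below it. The 1.45-fold difference of STAB1 became 1.12-fold (0.937 to 1.33) without mitochondrial genes in the total and 0.936-fold (0.786 to 1.11) when scaled to the median feature. The direction of STAB1 at 2 weeks therefore rested on the scaling, whereas CD74 stayed higher under both (2.00-fold and 1.67-fold). Fiber type differed as well. Spots mostly of the slow myosin MYH7 (slow spots, defined below) numbered 12 at 2 weeks and 683 in stored healthy muscle. In the fast spots (692 and 580), CD74 was at 0.770 against 0.139 per 10000 UMIs and STAB1 at 0.490 against 0.261. The part of fiber type in these differences was not tested.

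The class II pathway was not uniform at 2 weeks. Of 7 listed genes of MHC class II and its loading with enough UMIs, CD74 included, 1 was at least 2-fold higher, beside 27.6% of all features. The list's median log2 ratio was 0.54. HLA-DRA was 1.82-fold higher (505 against 855 UMIs), HLA-DMA, a subunit of the peptide loader HLA-DM, 1.08-fold, and the endosomal proteases CTSB and LGMN 1.44-fold and 1.45-fold. CD74 was the only one of these past 2-fold, a gene for which the list was built. Among 10 scavenger receptors, the mannose receptor MRC1 (3.07-fold) and the ferritin receptor SCARA5 (2.37-fold) were at least 2-fold higher and AGER (0.419-fold, 3 against 22 UMIs) lower, as were 2.11% of all features.

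Macrophage genes as a list stood below the median feature at 2 weeks. Of 15 of them, 2 were at least 2-fold higher (MRC1 and FCER1G, 2.82-fold), beside 27.6% of all features. At least 2-fold lower was 1 (GPNMB, 13 against 570 UMIs, of which 334 lay in 1 stored healthy spot), beside 2.11% of all features. The median log2 ratio of the list was -0.03, beside 0.63 for all features. CD68 itself was at 0.973-fold (0.757 to 1.24), and at 1.29-fold (0.996 to 1.67) without 1 stored healthy spot that held 69 of the 278 CD68 UMIs there. CIITA, the master activator of class II genes, was counted with only 0, 6, 4 and 4 UMIs in fresh healthy, stored healthy, 2 weeks and 16 weeks, too few to compare. The part of these genes in the level of CD74 was not tested.

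The second comparison set the 16-week muscle against the opposite, healthy side. CD74 was 2.33-fold higher (2.00 to 2.71) and STAB1 2.97-fold higher (2.60 to 3.40). Here 46.9% of 6025 features were at least 2-fold higher and the median log2 ratio was 0.93, so that passing 2-fold was common. Scaled to the median feature, CD74 was 1.23-fold higher (1.06 to 1.44) and STAB1 1.58-fold higher (1.38 to 1.80). STAB1 ranked above 78.3% of the features and CD74 above 63.5%. Slow and fast spots numbered 531 and 74 at 16 weeks. In slow spots CD74 was at 0.530 per 10000 UMIs against 0.669 in stored healthy muscle, and STAB1 at 0.629 against 0.538. In fast spots CD74 was at 0.221 against 0.139 and STAB1 at 0.405 against 0.261. Spots with fewer than 20 myosin UMIs, in neither class, are described below.

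Other scavenger receptors and macrophage genes stood near the median feature as lists. At least 2-fold higher were 46.9% of all features. Of 10 scavenger receptors 6 were, STAB1 included, among them MRC1 (4.05-fold), SCARA3 (3.67-fold) and the fatty acid receptor CD36 (3.56-fold). Of 15 macrophage genes 9 were, led by the complement genes C1QB (5.64-fold), C1QC (3.70-fold) and C1QA (3.53-fold) and by the growth factor receptor CSF1R (4.29-fold), whereas CD68 was 1.66-fold higher, or 2.21-fold (1.80 to 2.71) without the stored healthy spot richest in CD68. The median log2 ratios of the lists were 1.17 and 1.05, beside 0.93 for all features. Of the class II list 5 of 8 were at least 2-fold higher, including CTSB (3.28-fold) and LGMN (2.39-fold), while HLA-DRA was at 1.24-fold (1.10 to 1.40), below the median feature.

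Directly between the tenotomy sections, CD74 was at 0.895-fold at 16 weeks relative to 2 weeks (0.765 to 1.05) and HLA-DRA at 0.685-fold (0.599 to 0.782). STAB1 was 2.04-fold higher at 16 weeks (1.73 to 2.43) and CD68 1.71-fold higher (1.32 to 2.24). In this comparison 18.1% of 5534 features were at least 2-fold higher at 16 weeks and the median log2 ratio was 0.32. CD74 and HLA-DRA were thus lower relative to the median feature at 16 weeks, and STAB1 higher. The class II list as a whole was not lower, as its median log2 ratio was 0.36, with 1 of 8 genes at least 2-fold higher. For the scavenger receptors the median was 0.63, with 3 of 8 at least 2-fold higher.

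The third comparison asked what 6 years of storage did to healthy muscle, although different animals were used. CD74 was 3.73-fold higher in the stored section (2.81 to 5.03) and STAB1 3.36-fold higher (2.60 to 4.40), in a comparison where 9.36% of 5756 features were at least 2-fold higher and the median log2 ratio was -0.11. HLA-DRA (6.94-fold), HLA-DMA (5.75-fold), CD68 (4.21-fold) and COL1A1 (4.94-fold), a collagen gene of connective tissue, were higher too. So were 14 of 15 macrophage genes, 5 of 7 class II genes and 6 of 8 genes of connective tissue. The sections also differed in fiber type, with the slow myosin gene MYH7 at 103 per 10000 UMIs in stored and 33.7 in fresh muscle. In fast spots (defined below) CD74 was at 0.139 per 10000 UMIs in stored and 0.0711 in fresh muscle, and STAB1 at 0.261 and 0.0917. Storage, animal, fiber type and the amount of connective tissue in the section cannot be told apart here.

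The relation to connective tissue was then followed spot by spot. Spots with a COL1A1 UMI numbered 105 in fresh healthy, 664 in stored healthy, 565 at 2 weeks and 382 at 16 weeks. CD74 in COL1A1-positive against COL1A1-negative spots was at 0.549 against 0.182 per 10000 UMIs in stored healthy, 0.904 against 0.416 at 2 weeks and 1.61 against 0.419 at 16 weeks. These were ratios of 3.01 (2.44 to 3.72), 2.17 (1.58 to 3.05) and 3.85 (3.08 to 4.81). Of all features, 11% in stored healthy, 9.02% at 2 weeks and 12.6% at 16 weeks were at least 2-fold higher in COL1A1-positive spots.

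STAB1 was at 0.516 against 0.245 in stored healthy, 0.560 against 0.259 at 2 weeks and 2.02 against 0.671 at 16 weeks. Its ratios were 2.11 (1.73 to 2.57), 2.17 (1.45 to 3.36) and 3.02 (2.50 to 3.63). Both genes were thus higher in the COL1A1-positive spots of each stored section. Spots thinned to 1000 UMIs were grouped anew, and fewer then counted as COL1A1-positive (177 in stored healthy, 258 at 2 weeks). With these groups the interval of CD74 in stored healthy muscle included 1 (1.75, 0.721 to 3.69), as did that of STAB1 at 2 weeks (1.99, 0.987 to 4.01). In fresh healthy muscle only 3 CD74 and 5 STAB1 UMIs fell in COL1A1-positive spots, with ratios of 0.730 (0.146 to 2.25) and 1.01 (0.316 to 2.48), beside 8.42% of features at least 2-fold higher. With so few UMIs both intervals include 1, and no difference was detectable.

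The levels were higher with each further COL1A1 UMI at 16 weeks. CD74 went from 0.419 per 10000 UMIs in spots with 0 COL1A1 UMIs to 0.884 with 1, 1.63 with 2 and 4.92 (3.89 to 6.14) with 3 or more. STAB1 went from 0.671 to 1.37, 2.58 and 4.29 (3.33 to 5.44). Without the spot that held 17 of its UMIs, CD74 in the top class was at 3.98. In stored healthy muscle CD74 went from 0.182 to 0.359, 0.834 and 0.881 and STAB1 from 0.245 to 0.387, 0.565 and 0.894. At 2 weeks CD74 went from 0.416 to 0.545, 0.807 and 1.18, and STAB1 from 0.259 to 0.310, 0.512 and 0.747.

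**Figure D3:**
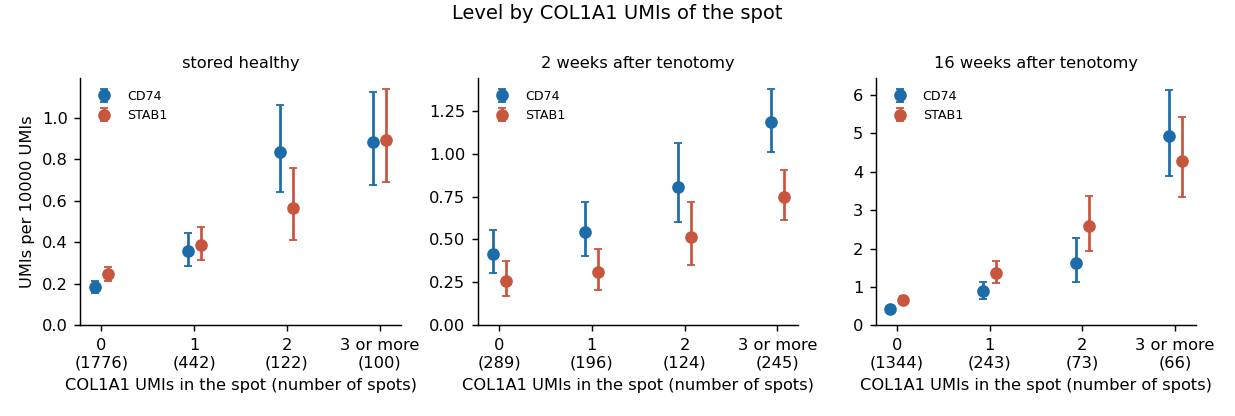
Level of CD74 and STAB1 (UMIs per 10000 UMIs, y axis from 0, a scale for each section) in spots grouped by their COL1A1 UMIs (x axis, number of spots in parentheses) in the 3 stored sections. Bars are exact Poisson 95% intervals; both genes were lowest in spots without COL1A1 and at 16 weeks reached 4.92 (CD74) and 4.29 (STAB1) in spots with 3 or more COL1A1 UMIs.

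Spots with a CD68 UMI were few, with 34 in fresh healthy, 169 in stored healthy, 69 at 2 weeks and 144 at 16 weeks. CD74 was at 1.19 per 10000 UMIs in CD68-positive and 0.212 in CD68-negative spots of the stored healthy section, at 1.85 and 0.651 at 2 weeks, and at 2.51 and 0.484 at 16 weeks. The ratios were 5.59 (4.49 to 6.95), 2.84 (2.17 to 3.68) and 5.18 (4.11 to 6.51). STAB1 had ratios of 2.74 (2.14 to 3.49), 2.66 (1.87 to 3.72) and 2.43 (1.93 to 3.03). Thinned spots were grouped anew by their thinned CD68 counts. In them the interval of STAB1 included 1 in stored healthy muscle (3.55, 0.946 to 9.42) and at 16 weeks (1.72, 0.894 to 3.02). That of CD74 did so at 2 weeks (2.91, 0.916 to 7.14). Of all features, 13%, 11.8% and 9.99% were at least 2-fold higher in CD68-positive spots of these sections, and CD74 ranked above 99.5%, 97.0% and 99.8% of features.

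At full depth, CD74 followed CD68 more closely than STAB1 did in the stored healthy and 16-week sections. The number of CD74 UMIs per STAB1 UMI was 1.51 in CD68-positive and 0.741 in CD68-negative spots of stored healthy muscle, a quotient of 2.04 (1.47 to 2.85). At 16 weeks it was 1.21 and 0.566, a quotient of 2.13 (1.54 to 2.95). At 2 weeks it was 1.70 and 1.59, a quotient of 1.07 (0.691 to 1.66), which gave no difference between the genes beyond counting error. In thinned spots the rank correlation with CD68 was 0.056 for CD74 and 0.060 for STAB1 in stored healthy muscle. It was 0.024 and 0.133 at 2 weeks and 0.153 and 0.050 at 16 weeks. Only 30, 20 and 64 thinned spots of these sections kept a CD68 UMI, too few to rank the genes by these correlations. In fresh healthy muscle, 2 CD74 and 4 STAB1 UMIs fell in CD68-positive spots, with ratios of 1.42 (0.168 to 5.40) and 2.37 (0.626 to 6.35), beside 17.4% of features at least 2-fold higher.

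The CD68 and COL1A1 relations were present together. In stored healthy muscle CD74 was at 1.56 per 10000 UMIs in the 93 spots positive for both genes, 0.621 in the 76 with CD68 alone, 0.345 in the 571 with COL1A1 alone and 0.159 in the 1700 with neither. At 16 weeks the corresponding levels were 4.44, 1.09, 0.95 and 0.362. STAB1 at 16 weeks was at 3.19, 1.27, 1.75 and 0.620 in the same order. Spots positive for both genes were thus the highest for CD74 and STAB1, and at 16 weeks the intervals of the single-positive classes overlapped for each gene.

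**Figure D4:**
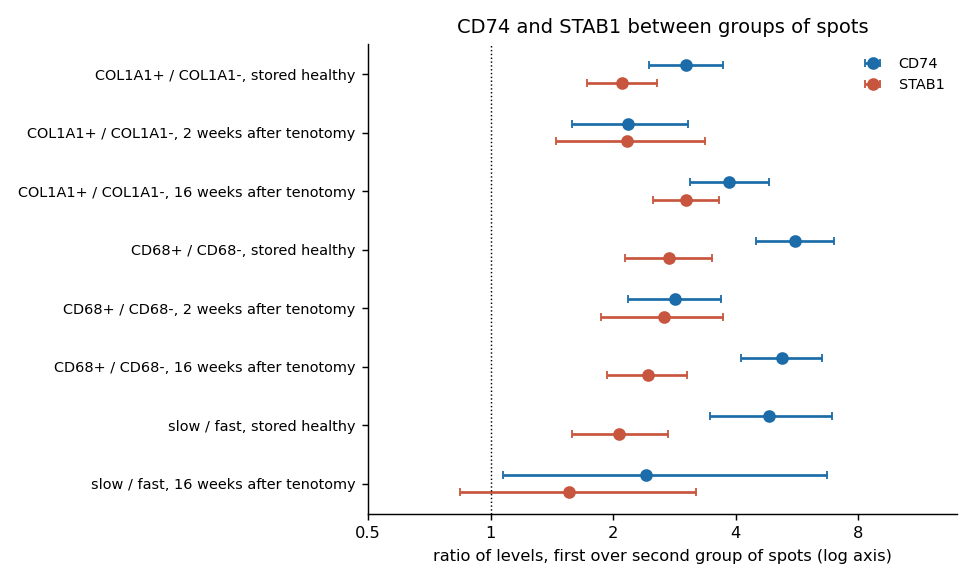
Ratio of the level of CD74 and of STAB1 between groups of spots (x axis, log scale, dotted line at 1) for COL1A1-positive against -negative, CD68-positive against -negative, and slow against fast spots in the stored sections. Bars are exact 95% intervals; the largest ratio was that of CD74 by CD68 in stored healthy muscle (5.59). The fresh section and the 2-week slow spots, with few UMIs, are not drawn.

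Fiber type was read from the adult myosin heavy chains, MYH7 of slow and MYH1 and MYH4 of fast fibers. The paper did not detect MYH2, of type 2a fibers, in healthy muscle. MYH2 enters neither the MYH7 share nor the count of myosin UMIs, so type 2a fibers are not read here. Spots with at least 20 myosin UMIs were called slow where MYH7 made up 75% or more of them and fast where it made up 25% or less. In the stored healthy section CD74 was at 0.669 per 10000 UMIs in 683 slow spots and 0.139 in 580 fast spots, a ratio of 4.82 (3.45 to 6.89), and STAB1 at 0.538 and 0.261, a ratio of 2.06 (1.58 to 2.72). The slow spots held 73.5% of all CD74 UMIs, 53.1% of STAB1 UMIs and 32.6% of all UMIs of the section. For comparison, 13.2% of features were at least 2-fold higher in slow spots.

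CD74 did not rise evenly with the MYH7 share in stored healthy muscle. It was at 0.138 per 10000 UMIs in spots with 0% to 25% MYH7, 0.125 with 25% to 50%, 0.0701 with 50% to 75% and 0.223 with 75% to 90%. It was at 0.637 (0.430 to 0.909) in the 94 spots with 90% to 95% and 0.812 (0.710 to 0.926) in the 421 spots with over 95%. The high levels were thus those of spots where MYH7 made up 90% or more of the counted myosin UMIs. Spots with 25% to 75% were as low as fast ones. STAB1 followed the same course with a smaller span, from 0.153 in spots with 50% to 75% MYH7 to 0.621 in those over 95%.

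**Figure D5:**
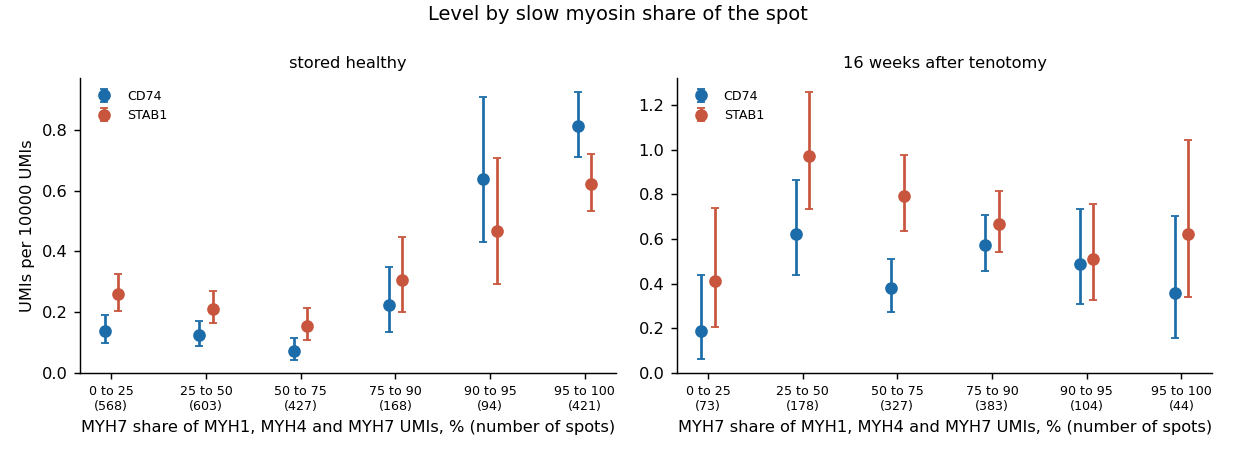
Level of CD74 and STAB1 (UMIs per 10000 UMIs, y axis from 0, a scale for each section) by the MYH7 share of the myosin UMIs of the spot (x axis, %, number of spots in parentheses) in the stored healthy and 16-week sections. Bars are exact Poisson 95% intervals; in stored healthy muscle CD74 reached 0.812 in spots over 95% MYH7, and at 16 weeks no such step was present.

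Connective tissue moved with the slow spots of the stored healthy section. COL1A1 was 2.74-fold higher in slow than in fast spots, and HLA-DRA 4.02-fold. CD68 was at 0.884-fold (0.672 to 1.17), but 1 fast spot held 69 of its 278 UMIs, and without that spot CD68 was 3.05-fold higher in slow spots (2.01 to 4.77), CD74 5.32-fold and STAB1 2.05-fold. Among spots without COL1A1, CD74 was still at 0.485 per 10000 UMIs in slow and 0.119 in fast spots, whereas STAB1 was at 0.376 and 0.252, a ratio of 1.49 (1.04 to 2.16). CD74 was at 1.79 in the 66 slow spots positive for both COL1A1 and CD68 and at 1.91 (0.767 to 3.93, 7 UMIs) in the 5 such fast spots. It was at 0.409 in the 316 slow spots with neither, and at 0.102 in the 443 such fast spots.

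No step at the slow end was present 16 weeks after tenotomy. There CD74 was at 0.530 in 531 slow and 0.221 in 74 fast spots, a ratio of 2.40 (1.07 to 6.68) that rested on 6 UMIs in the fast spots and was 2.04 (0.906 to 5.71) without the richest spot, and STAB1 had a ratio of 1.55 (0.840 to 3.19), beside 11.7% of features at least 2-fold higher. Between the highest and lowest 25% of spots by MYH7 share, the ratio of CD74 turned to 0.807 (0.525 to 1.24) and that of STAB1 was 0.732 (0.522 to 1.03). By share, CD74 at 16 weeks was highest in spots with 25% to 50% MYH7 (0.624) and at 0.356 in those over 95%. The fresh healthy and 2-week sections had 12 slow spots each, with 0 and 4 CD74 UMIs, too few for a comparison.

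Spots with fewer than 20 myosin UMIs, a count that low depth or little fiber RNA can give, separated the genes in stored healthy muscle, on few UMIs. In 159 such spots STAB1 (20 UMIs) was at 0.986 per 10000 UMIs against 0.319 elsewhere, a ratio of 3.09 (1.86 to 4.83). CD74 (5 UMIs) was at 0.246 against 0.298, a ratio of 0.826 (0.267 to 1.95). Without the spot that held 5 of its UMIs, STAB1 was at 0.744. The number of CD74 UMIs per STAB1 UMI was 0.25 there and 0.934 elsewhere, a quotient of 0.268 (0.0778 to 0.746). At 16 weeks 617 spots were of this kind and both genes were higher in them, CD74 4.21-fold (3.35 to 5.27) and STAB1 3.80-fold (3.13 to 4.59). These spots were shallow, with a median of 842 UMIs in stored healthy muscle and 972 at 16 weeks.

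CD74 and STAB1 shared part of their spots. In stored healthy muscle 72 spots held both, 30.1% of the CD74 spots and 22.6% of the STAB1 spots. At 2 weeks there were 45, 29.0% and 32.1%, at 16 weeks 76, 39.2% and 24.3%, and in fresh healthy 1 spot, of 48 and 60. STAB1 in CD74-positive against CD74-negative spots had ratios of 2.37 (1.88 to 2.96) in stored healthy, 2.67 (1.99 to 3.57) at 2 weeks and 2.92 (2.39 to 3.56) at 16 weeks. In fresh healthy the ratio was 0.451 (0.0112 to 2.60), with 1 UMI.

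HLA-DRA differed with CD74 by larger factors than STAB1 did. It was higher in CD74-positive spots by 25-fold (15.0 to 41.2) in fresh healthy, 6.98-fold (6.09 to 8.0) in stored healthy, 5.64-fold (4.70 to 6.80) at 2 weeks and 7.15-fold (5.85 to 8.74) at 16 weeks. In STAB1-positive spots the ratios of HLA-DRA were 0.991 (0.199 to 3.03), 2.11 (1.81 to 2.45), 1.82 (1.49 to 2.20) and 1.75 (1.41 to 2.17). HLA-DMA was 6.28-fold higher in CD74-positive spots of stored healthy muscle, 3.88-fold at 2 weeks and 8.23-fold at 16 weeks, against 2.37-fold, 1.90-fold and 2.04-fold in STAB1-positive spots. The intervals of HLA-DRA for the CD74 and STAB1 splits did not overlap in any section.

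Macrophage genes were higher beside both genes. In CD74-positive spots 14 of 15 were at least 2-fold higher in stored healthy muscle, 8 of 11 at 2 weeks, 12 of 13 at 16 weeks and 6 of 7 in fresh healthy, where 11.2%, 6.53%, 11.5% and 16% of all features were. In STAB1-positive spots 8 of 15, 10 of 11, 10 of 13 and 4 of 7 were, against 10.1%, 8.37%, 8.74% and 11.1% of all features. CSF1R, the receptor that keeps macrophages alive, was higher by 3.60-fold, 2.79-fold and 3.23-fold beside CD74 and by 3.30-fold, 3.39-fold and 3.16-fold beside STAB1 in stored healthy, 2 weeks and 16 weeks. In stored healthy muscle AIF1, a calcium-binding protein of macrophages, was 6.02-fold higher beside CD74 and 3.90-fold beside STAB1, whereas C1QA was 2.55-fold higher beside CD74 and 3.91-fold beside STAB1.

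A single stored healthy spot weighed on these values. It held 69 UMIs of CD68, 334 of GPNMB and 391 of the lectin gene LGALS3, with 4 of CD74 and 0 of STAB1. Without it the ratio of GPNMB, a glycoprotein of lipid-laden macrophages, in CD74-positive spots dropped from 12.9 to 1.27, that of LGALS3 from 5.88 to 2.34 and that of CD68 from 7.38 to 3.86, while HLA-DRA stayed at 6.89. The macrophage count was then 12 of 15, and that of the class II list, CD74 left out, dropped from 5 of 5 to 2 of 5, HLA-DRA and HLA-DMA.

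Endothelial genes were also counted beside both genes. In STAB1-positive spots of fresh healthy muscle all 4 tested endothelial genes were at least 2-fold higher, VWF (2.02-fold, 70 UMIs in the positive spots), the angiopoietin receptor TEK (2.91-fold, 8 UMIs), PECAM1 (3.21-fold, 5 UMIs) and PROX1 (3.85-fold, 3 UMIs), beside 11.1% of all features. In CD74-positive spots of fresh healthy muscle 0 of 4 were, beside 16% of features. In stored healthy muscle the counts were 3 of 5 beside STAB1 (VWF, TEK and PROX1) and 0 of 5 beside CD74, at 2 weeks 1 of 4 (VWF) and 0 of 4, and at 16 weeks 2 of 4 beside each (PECAM1 and TEK). In these 3 sections 10.1%, 8.37% and 8.74% of features were at least 2-fold higher beside STAB1, and 11.2%, 6.53% and 11.5% beside CD74. Apart from VWF these genes had few UMIs, and the difference between the counts was not tested.

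Among other immune cells, dendritic cells had few counted markers and plasma cell genes were highest at 16 weeks. Of 10 listed dendritic cell genes 3 had a feature and none reached 20 UMIs in a comparison. The 8 B and plasma cell genes with a feature summed to 17 UMIs in fresh healthy, 13 in stored healthy, 34 at 2 weeks and 165 at 16 weeks. Most came from JCHAIN, the joining chain of secreted antibodies, with 16, 5, 28 and 129 UMIs, and MZB1, a chaperone of antibody secretion, had 0, 3, 5 and 28. JCHAIN and MZB1 were at least 2-fold higher at 16 weeks than in stored healthy muscle, as were 46.9% of all features. They were also at least 2-fold higher in CD74-positive than in CD74-negative spots at 16 weeks, as were 11.5% of all features. The part of these cells in the level of CD74 was not tested. The B cell gene MS4A1 was at 0 in each section, and a count of 0 allows up to 3 UMIs, so B cells and dendritic cells cannot be called absent. STAB2, the liver and lymph node relative of STAB1, was at 0 UMIs in each section, and of the scavenger list 16 of 21 genes had a feature.

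By depth-corrected counts across spots, HLA-DRA had the pattern most like that of CD74 in the stored sections. Likeness was the Pearson correlation of depth-corrected counts (Pearson residuals) across the spots of a section, over features with at least 100 UMIs. HLA-DRA ranked first in stored healthy muscle (r = 0.55 over 2440 spots), at 2 weeks (0.78 over 854) and at 16 weeks (0.47 over 1726), and had fewer than 100 UMIs in fresh healthy, where PCNA led with 0.19. AIF1 (0.34) and HLA-DMA (0.34) followed among named genes in stored healthy muscle, LGALS3 (0.51) and S100A4 (0.49) at 2 weeks and COL3A1 (0.36) at 16 weeks. Most of these stood far lower by rank correlation in thinned spots. There AIF1 ranked 1372 and HLA-DMA 160 of 2702 features, LGALS3 166 and S100A4 937 of 1907, and COL3A1 12 of 2339.

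No single feature ranked first for STAB1 in more than 1 stored section. Its most alike named genes were the lymphatic chemokine CCL21 (r = 0.35) and COL1A2 (0.32) in stored healthy muscle, the lysosomal proteases CTSK (0.44) and LGMN (0.43) at 2 weeks, and COL3A1 (0.39), CLU (0.39) and LUM (0.39) at 16 weeks. In fresh healthy muscle they were ADH6 (0.16), the chemokine CCL14 (0.14), ANXA1 (0.14) and VWF (0.13). The unnamed feature ENSOCUG00000034178 was among the 5 most alike to STAB1 in each section. It was also among the 5 most alike to CD74 at 2 weeks (r = 0.50) and 16 weeks (0.36). The correlation between CD74 and STAB1 themselves was 0.12 in stored healthy muscle, 0.24 at 2 weeks and 0.20 at 16 weeks. Spots of a section share a library and differ in depth, and in thinned spots the rank correlation of CD74 with HLA-DRA was 0.14, 0.26 and 0.20. By that measure HLA-DRA ranked 1 in stored healthy muscle, 2 at 2 weeks and 15 at 16 weeks. This measure differs from the likeness above in both the statistic and the depth, and the part of each in the change of rank was not tested.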

How the data were processed

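Visium 3' libraries of 4 sections were analysed. Per the labels, the authors processed the reads with Space Ranger 1.2.0 on OryCun2.0 and deposited raw UMI counts per feature and spot for spots under tissue. No sample was left out. The 2 genes and the gene lists were chosen with earlier results of these data known. Levels are summed counts per 10000 UMIs with exact Poisson intervals, ratios have exact conditional intervals, and shares have Clopper-Pearson intervals, at 95%, and none of them reflects more than counting error. These were computed with Python 3.11.15, numpy 2.4.6 and scipy 1.17.1 and tested on simulated Poisson counts. Such counts lack the clustering of UMIs in spots seen here, so the test does not cover it. Features were compared with 0.5 UMIs added, from 20 UMIs over both sides, and called at 2-fold. The printed median log2 ratios are over these features. Scaling to the median feature instead used the features with at least 20 UMIs in each section, with none added. Spots were thinned to 1000 UMIs by sampling without replacement. Groups of thinned spots were set anew from the thinned counts, so a positive spot could become a negative one. Named were CD74, STAB1, the genes they were related to, the list members with most UMIs or at least 2-fold apart, and the 5 features of each section most alike. Alternatives left out 37 mitochondrial genes, shallow or top spots, or changed thresholds. No sequence is shown, and 1 withheld item is not reported here.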

Additional observations from a re-analysis of the deposited data

How the results depend on the processing

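Of 185 recomputed ratios of CD74 and STAB1, 144 stayed within the 95% interval of the reported ratio and 39 moved outside it. The other 2, whose reported interval excluded 1, turned to the other side of 1. For 12 of the 185 the reported interval excluded 1 and the recomputed interval included it. Of the ratios whose reported interval included 1, 10 also crossed it, 8 of them in fresh healthy muscle. Without mitochondrial genes in the total, CD74 was 2.00-fold and STAB1 1.12-fold higher at 2 weeks than in stored healthy muscle, and 1.81-fold and 2.31-fold higher at 16 weeks. Scaled by the median feature, CD74 was at 1.67-fold and STAB1, reversed, at 0.936-fold at 2 weeks, at 1.23-fold and 1.58-fold at 16 weeks, and at 0.751-fold and 1.71-fold at 16 weeks against 2 weeks. With spots thinned to 1000 UMIs the section ratios were 3.30 for CD74 and 1.19 for STAB1 at 2 weeks against stored healthy, and 0.721 and 2.65 at 16 against 2 weeks.

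Groups of thinned spots were set anew from the thinned counts and are not the groups at full depth. In thinned spots the COL1A1 ratios were 1.75 for CD74 and 3.68 for STAB1 in stored healthy muscle and 5.21 and 3.90 at 16 weeks. The thinned CD68 ratios of STAB1 were 3.55 in stored healthy, 6.10 at 2 weeks and 1.72 at 16 weeks. STAB1 by CD74 was 5.43-fold in stored healthy and 5.23-fold at 2 weeks after thinning, and 4.09-fold at 2 weeks with at least 3 CD74 UMIs against fewer. With at least 3 COL1A1 UMIs against fewer, CD74 was 8.99-fold and STAB1 4.94-fold at 16 weeks, and STAB1 3.03-fold in stored healthy muscle. Slow against fast, STAB1 was 1.49-fold in COL1A1-negative stored healthy spots, and at 16 weeks the highest against the lowest 25% of spots by MYH7 share gave 0.807 for CD74, reversed, and 0.732 for STAB1. The cause of these shifts was not tested.

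From 50 UMIs instead of 20, the features at least 2-fold higher numbered 1040 instead of 1568 at 2 weeks against stored healthy, 347 instead of 539 for stored against fresh, and 655 instead of 1001 for 16 against 2 weeks. Those lower numbered 70 instead of 120, 385 instead of 631 (stored against fresh) and 81 instead of 142 (16 weeks against stored healthy). Of the 5 features most like each gene in a section, 0 to 3 were among the 5 highest by rank correlation in thinned spots. Leaving out the spot with most CD68 UMIs, also for the ratios of CD68 between sections, and the quotients of CD74 to STAB1 were added after the data were seen. No paired analysis was possible because each condition had 1 section. Both genes averaged under 1 UMI per spot, so single spots give no level, and thinned groups in fresh healthy muscle held too few UMIs to read.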

Other observations

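Adipocyte genes had their highest summed level at 16 weeks. Summed over 4 listed adipocyte genes with a feature, their level was 3.47 per 10000 UMIs in fresh healthy, 2.99 in stored healthy, 6.31 at 2 weeks and 13.3 at 16 weeks. The connective tissue list (8 genes) was at 14.1, 43.1, 135 and 84.4 in the same order, highest at 2 weeks as CD74 and HLA-DRA were. The macrophage list (16 genes) was at 0.750, 3.31, 2.92 and 7.84, highest at 16 weeks as STAB1 and CD68 were. Of its 4145 UMIs in stored healthy muscle, 1 spot held 391 of LGALS3, 334 of GPNMB and 69 of CD68. The order of stored healthy and 2 weeks in this list is therefore not read. These sums are dominated by their most abundant genes and have no replicate.

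Per CD68 UMI, the number of CD74 UMIs was 1.51 in fresh healthy, 1.34 in stored healthy (1.77 without the spot richest in CD68), 3.59 (2.83 to 4.60) at 2 weeks and 1.88 at 16 weeks. HLA-DRA UMIs per CD74 UMI numbered 1.23, 2.29, 1.60 and 1.22, so that the stored healthy section had the most HLA-DRA for its CD74 (2.03 to 2.60).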
